A study of Mus musculus with 12 samples.

Results

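The kinesin motor genes are the protein-coding genes of the deposited expression table whose symbol is Kif followed by a family number, with or without a closing letter, or Kifc followed by a number. The rule found 40 genes among 51912 genes in the table, of which 22025 are protein coding. It used names only and no measured value. Primary cortical neurons of E17.5 C57BL/6J mouse embryos were kept for 48 h with 1 µg/mL erinacine S, for 48 h with DMSO, for 16 h with 1 µg/mL erinacine S, or for 16 h with DMSO. Erinacine S is a compound of the mushroom Hericium erinaceus and DMSO is its solvent. It was added a few hours after the cells were plated, so a later time is also a later day in culture for both treatments. Each of the 4 groups has 3 libraries, called independent repeats, and the litters and dishes behind them are not stated, so the p-values below measure the spread between libraries, which may be technical.

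Kinesins are motor proteins that turn the energy of ATP into steps along microtubules, most of them toward the plus end. In a neuron, motors of the kinesin-1, kinesin-2 and kinesin-3 families carry mitochondria, synaptic vesicle precursors, membrane proteins and RNA into axons and dendrites. Other kinesins shorten or cap microtubule ends, work in cilia, or walk toward the minus end. A further set builds the mitotic spindle and splits the dividing cell, and is made mainly by cells that are cycling.

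Expression is given in TPM, a transcript abundance that divides reads by transcript length and scales each library to the same total, so levels of different genes can be set side by side. All levels below are TPM and all fold changes are on the log2(TPM + 1) scale. The neuronal markers (Tubb3, Map2, Rbfox3, Snap25, Stmn2, Slc17a7, Slc17a6, Gad1 and Gad2) summed to 4968 to 5174 TPM in erinacine S 48 h libraries, 4942 to 5256 in DMSO 48 h libraries, 3433 to 4095 in erinacine S 16 h libraries and 3308 to 3953 in DMSO 16 h libraries. Vascular and fibroblast markers summed to at most 3.14 TPM in any library, while glial and dividing cells were measurable. A library had 15219 to 15789 genes at 1 TPM or more, and read depth is unknown because TPM keep none. Log2 values of replicates correlated across genes at 0.980 to 0.995 within erinacine S 48 h and at 0.985 to 0.995 within the other groups. Erinacine S 48 h replicate 1 stood apart from replicates 2 and 3 of its group. Fits without it are given for many of the results at 48 h and over time in erinacine S. Group means, sums and shares include it.

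Of the 40 kinesin genes, 35 averaged at least 1 TPM over the 12 libraries and were tested. Kif9, Kif6 and Kif19a, all tied to cilia, lay between 0.144 and 1.09 TPM. Kif12 held the deposited placeholder for 0 (0.0001) in 10 of 12 libraries, and Kif2b, a microtubule depolymerase of the spindle, held it in all 12. Some kinesins carry other names and so fall outside the rule. Among them are Cenpe, a kinetochore motor, with a mean of 5.44 TPM, Stard9 with 4.48 TPM and Kifc5b, a near copy of Kifc1, with 6.55 TPM. Reads of Kifc1 and Kifc5b may be split between them, so their single values are uncertain.

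The most abundant kinesin transcripts were those of the neuronal cargo motors. Kif1a, which carries synaptic vesicle precursors, led with a mean of 329 TPM over the 12 libraries. Kif5c followed with 308 TPM and Kif5a with 206 TPM, both heavy chains of kinesin-1, the general anterograde motor. Kif21b, a motor that restrains microtubule growth, had 207 TPM. The kinesin-2 genes Kif3c and Kif3a had 180.0 and 163 TPM. The order near the top was not fixed in each library: Kif1a was above Kif5c in all 6 of the 48 h libraries, while Kif5a and Kif21b overlapped in their ranges (179 to 241 TPM against 158 to 239 TPM).

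**Figure D1:**
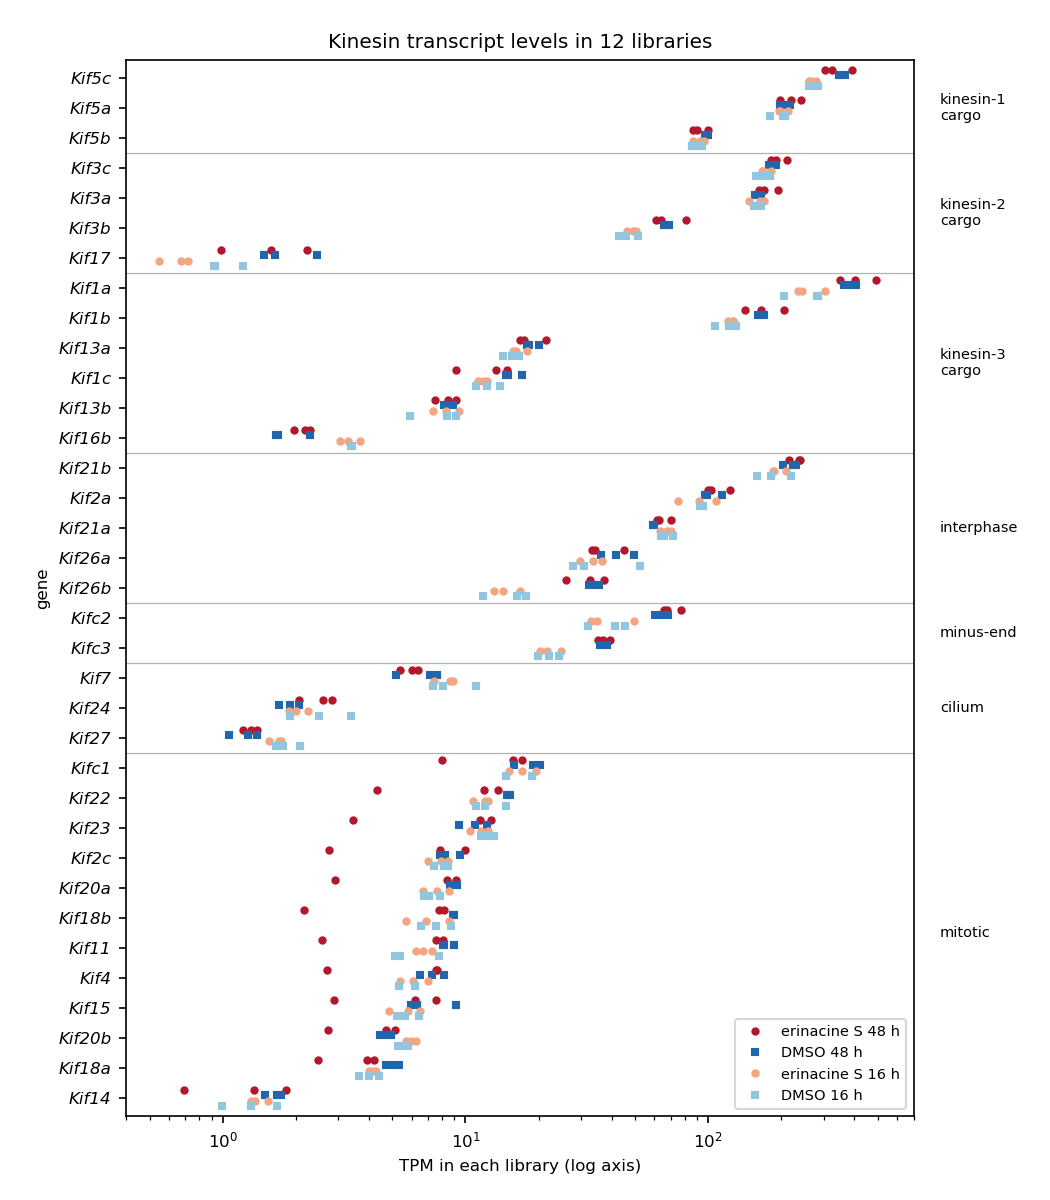
TPM on a log axis for the 35 kinesin genes that were tested, with 1 point per library, grouped by role and coloured by group. The 13 cargo motors span 1.28 to 329 TPM by mean, the 12 mitotic kinesins span 1.41 to 16.6 TPM, and in every mitotic row the lowest point is erinacine S 48 h replicate 1.

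By role, the 13 cargo motors of the kinesin-1, -2 and -3 families made up 71.8 ± 2.34% of all kinesin TPM in erinacine S 48 h, 71.2 ± 0.64% in DMSO 48 h, 70.7 ± 0.93% in erinacine S 16 h and 70.3 ± 1.28% in DMSO 16 h (SD, n = 3). Kinesin-1 and kinesin-3 genes supplied most of it. Within kinesin-3, Kif1a and Kif1b stood far above Kif13a (17.4 TPM), which carries mannose-6-phosphate receptor vesicles, Kif1c (13.1 TPM), a motor of dense-core vesicles, Kif13b (8.25 TPM) and the endosome motor Kif16b (2.69 TPM). Kif17, a dendritic motor of NMDA receptor vesicles, was the lowest cargo motor at 1.28 TPM.

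The interphase set held Kif21b, Kif2a (99.3 TPM), a depolymerase that limits axon branches in mouse, Kif21a (64.6 TPM), and the signalling kinesins Kif26a (37.5 TPM) and Kif26b (24.0 TPM). The minus-end motors outside mitosis were Kifc2 (53.3 TPM), a neuronal motor, and Kifc3 (29.7 TPM). Cilium kinesins were low, led by Kif7 (7.42 TPM), a regulator of hedgehog signalling. The 12 mitotic kinesins were led by Kifc1 (16.6 TPM), which cross-links spindle microtubules, the chromosome-bound motor Kif22 (12.3 TPM) and the midzone motor Kif23 (11.0 TPM). Their summed level was 79.1 ± 36.2 TPM in erinacine S 48 h, 105 ± 3.44 in DMSO 48 h, 93.0 ± 8.69 in erinacine S 16 h and 93.9 ± 7.73 in DMSO 16 h (SD, n = 3).

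The comparison of 48 h with 16 h in culture followed the kinesins over early neuronal maturation, first in DMSO. In DMSO, 7 of the 35 tested kinesins rose and 2 fell, while no mitotic kinesin passed the test. The risers were both minus-end motors (Kifc3 and Kifc2), the signalling kinesin Kif26b and the cargo motors Kif3b, Kif5c, Kif1b and Kif1a. Kif16b and Kif27 fell. The 9 calls are 25.7% of the tested kinesins, against 32.7% of all 15623 tested genes. By direction, the 7 rises and 2 falls among the 35 kinesins stand against 16.1% of all genes that rose and 16.6% that fell, and no test of the difference from all genes was made. The median log2 fold change of the 35 kinesins was 0.23, against -0.03 over all genes. In bulk RNA, fewer cells of a type and less RNA per cell cannot be told apart.

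Markers of other cells and of neurons also differed between the times. In DMSO the oligodendrocyte lineage markers summed to 192 to 222 TPM at 48 h, against 51.5 to 99.6 TPM at 16 h, and 5 of 5 rose. Astrocyte markers summed to 83.7 to 98.4 TPM at 48 h, against 39.3 to 55.1 TPM at 16 h, and 1 of 4 tested rose. Microglial markers summed to 15.5 to 22.3 TPM at 48 h, against 20.0 to 37.8 TPM at 16 h, and 1 of 5 tested fell. Of 9 neuronal markers 4 rose and 1 fell, of 6 radial glia and progenitor markers 1 fell, and none of 8 markers of dividing cells passed. In erinacine S, 2 of 5 oligodendrocyte lineage markers rose (58.0 to 177 TPM at 48 h, against 53.9 to 86.8 TPM at 16 h) and 4 of 5 tested microglial markers fell (1.09 to 8.30 TPM at 48 h, against 22.5 to 34.3 TPM at 16 h). There 4 of 9 neuronal markers rose, 3 of 6 radial glia and progenitor markers fell, 1 of 8 markers of dividing cells fell, and none of 4 tested astrocyte markers passed. These counts depend on erinacine S 48 h replicate 1. Without it, 4 of 5 oligodendrocyte lineage, 2 of 4 astrocyte and 2 of 8 dividing cell markers passed. The dividing cell markers then had a median log2 fold change of 0.25, with 7 of 8 positive. Microglial, neuronal and radial glia and progenitor markers had 4, 4 and 3 calls in that fit, counted in either direction. Of the microglial markers 0 of 5 were then positive. The neuronal median log2 fold change was -0.08 with 4 of 9 positive, against 0.25 with 5 of 9 positive with all libraries. For radial glia and progenitors it was -0.16 with 3 of 6 positive, against -0.43 with 1 of 6. The part of these cells in the kinesin changes over time was not tested.

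Kif26b (ENSMUSG00000026494, chr1:178529125-178939200), needed in mouse for kidney formation and a part of Wnt5a signalling, moved furthest on the log2(TPM + 1) scale. It had 34.7, 32.3 and 35.5 TPM in DMSO 48 h libraries, against 17.7, 16.3 and 11.8 TPM in DMSO 16 h libraries. Every 48 h library lay above every 16 h library, and the log2 fold change was 1.13 ± 0.15 (SE; limma, adjusted p = 0.000317). In erinacine S it had 37.2, 32.7 and 26.1 TPM at 48 h, against 16.7, 13.2 and 14.3 TPM at 16 h. The groups again did not overlap, with a log2 fold change of 1.06 ± 0.15 (limma, adjusted p = 0.000537).

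Kifc3 (ENSMUSG00000031788, chr8:95099828-95202812), a minus-end motor known from epithelial transport and cell junctions, had 38.1, 35.9 and 38.3 TPM in DMSO 48 h libraries, against 22.0, 24.2 and 19.9 TPM in DMSO 16 h libraries. In erinacine S it had 39.4, 37.0 and 35.3 TPM at 48 h, against 24.7, 20.3 and 21.6 TPM at 16 h. All 6 libraries of 48 h were above all 6 of 16 h, with a log2 fold change of 0.74 ± 0.09 in DMSO (limma, adjusted p = 0.000169) and 0.72 ± 0.09 in erinacine S (adjusted p = 0.000241).

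Kifc2 (ENSMUSG00000004187, chr15:76660641-76668196), a minus-end motor of neurons, had 68.4, 60.3 and 64.5 TPM in DMSO 48 h libraries, against 45.3, 41.1 and 32.0 TPM in DMSO 16 h libraries. With erinacine S, Kifc2 had 77.5, 65.6 and 67.6 TPM at 48 h, against 49.4, 34.8 and 32.9 TPM at 16 h. The groups did not overlap under either treatment, although replicate 1 of both 16 h groups was the highest of its group. It rose by a log2 fold change of 0.70 in DMSO and 0.85 in erinacine S, each ± 0.15 (limma, adjusted p = 0.00452 and 0.00179). Together the pair of minus-end motors took 4.51 ± 0.20% of kinesin TPM in erinacine S 48 h, 4.34 ± 0.14% in DMSO 48 h, 3.16 ± 0.48% in erinacine S 16 h and 3.20 ± 0.22% in DMSO 16 h.

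**Figure D2:**
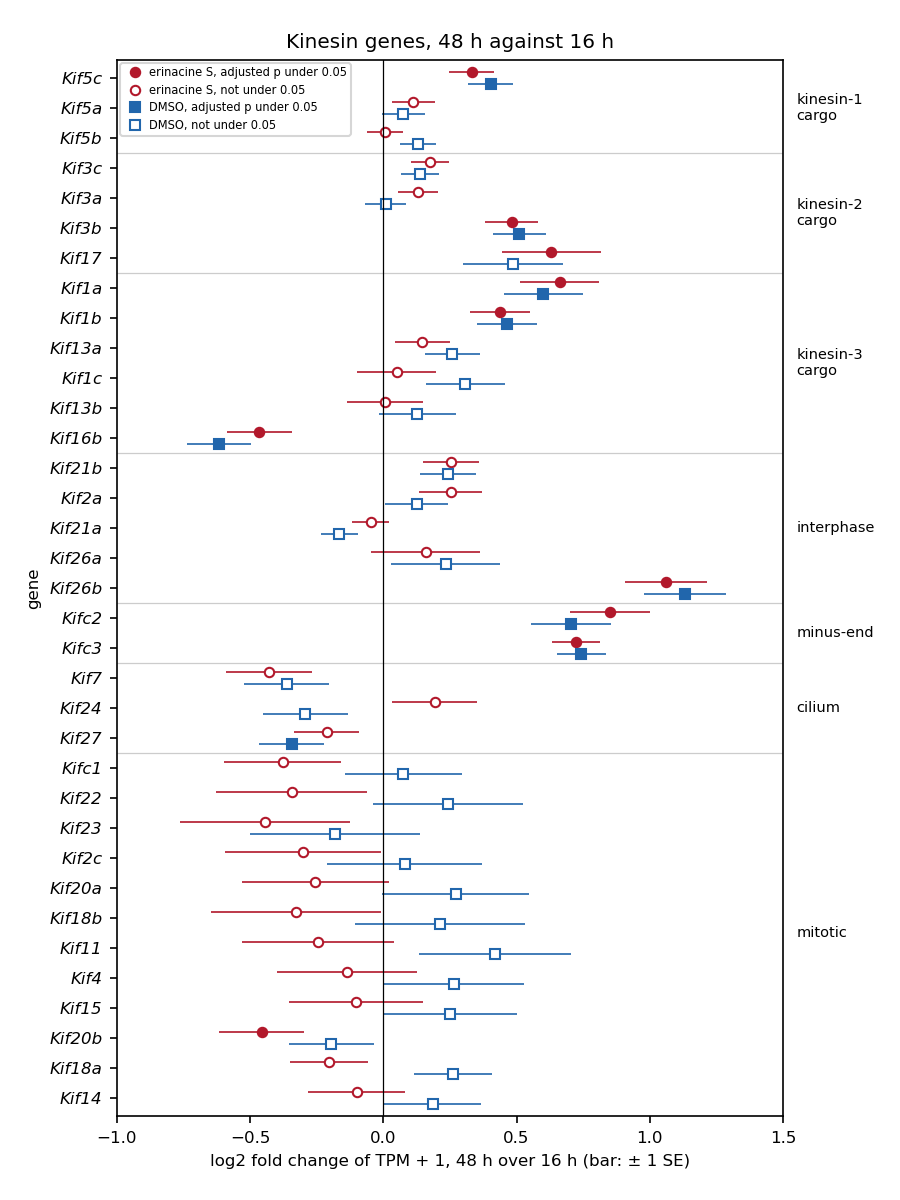
Log2 fold change of TPM + 1 at 48 h over 16 h for the 35 tested kinesins, in erinacine S (circles) and DMSO (squares), with bars of ± 1 SE and filled symbols where the adjusted p is under 0.05. Kif26b, Kifc2 and Kifc3 lie furthest to the right under both treatments (0.70 to 1.13), Kif16b lies to the left under both (-0.62 in DMSO), and the mitotic kinesins lie left of 0 in erinacine S. The fit includes erinacine S 48 h replicate 1.

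Among the kinesin-3 motors, Kif1a (ENSMUSG00000014602, chr1:93015464-93101951) had 390.3, 362 and 405 TPM in DMSO 48 h libraries, against 281, 284 and 205 TPM in DMSO 16 h libraries. In erinacine S it had 492, 402 and 347 TPM at 48 h, against 302, 235 and 243 TPM at 16 h. Kif1a rose by a log2 fold change of 0.60 in DMSO and 0.66 in erinacine S (each ± 0.15; limma, adjusted p = 0.00959 and 0.00615), with no overlap between the times. Its relative Kif1b (ENSMUSG00000063077, chr4:149176319-149307693), which carries mitochondria and synaptic vesicle precursors by different isoforms, had 166, 159.9 and 169 TPM in DMSO 48 h libraries, against 130.3, 121 and 107 TPM in DMSO 16 h libraries. Kif1b had 206, 165 and 142 TPM in erinacine S 48 h libraries, against 126, 121 and 126 TPM in erinacine S 16 h libraries. The 48 h libraries were again all higher, by a log2 fold change of 0.47 in DMSO and 0.44 in erinacine S (each ± 0.11; limma, adjusted p = 0.0085 and 0.0122).

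Kif16b (ENSMUSG00000038844, chr2:142617474-142901531), which in human cells moves early endosomes outward, was the kinesin-3 gene that fell. It had 2.29, 1.66 and 1.70 TPM in DMSO 48 h libraries, against 3.41, 3.37 and 3.40 TPM in DMSO 16 h libraries. With erinacine S, Kif16b had 2.18, 2.28 and 1.97 TPM at 48 h, against 3.68, 3.29 and 3.06 TPM at 16 h. Each 48 h library was below each 16 h library. The log2 fold change was -0.62 in DMSO and -0.47 in erinacine S (each ± 0.12; limma, adjusted p = 0.00282 and 0.0135). The remaining kinesin-3 genes, Kif13a, Kif1c and Kif13b, had log2 fold changes of 0.26, 0.31 and 0.13 in DMSO and did not pass.

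In kinesin-1, Kif5c (ENSMUSG00000026764, chr2:49619298-49774778), a heavy chain enriched in neurons, had 357, 347 and 364 TPM in DMSO 48 h libraries, against 284, 259.6 and 263 TPM in DMSO 16 h libraries. With erinacine S, Kif5c had 391, 323 and 302 TPM at 48 h, against 260.0, 265 and 277 TPM at 16 h. The times did not overlap, and the log2 fold change was 0.40 in DMSO and 0.33 in erinacine S (each ± 0.08; limma, adjusted p = 0.00391 and 0.0116). The other heavy chains did not pass. Kif5a, the neuronal form mutated in human spastic paraplegia, had log2 fold changes of 0.08 in DMSO and 0.11 in erinacine S. Kif5b, the form found in most tissues, had 0.13 and 0.01. The ratio of Kif5c to Kif5a TPM was 1.62, 1.48 and 1.53 in erinacine S 48 h, 1.73, 1.76 and 1.68 in DMSO 48 h, 1.22, 1.36 and 1.40 in erinacine S 16 h and 1.39, 1.25 and 1.47 in DMSO 16 h libraries, with no overlap between the times under either treatment. At 48 h every erinacine S ratio was also below every DMSO ratio, while at 16 h the treatments overlapped. No test of this ratio was made.

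In the heterotrimeric form of kinesin-2, Kif3a pairs with Kif3b or Kif3c, and Kifap3 links the pair to its cargo. Kif3b (ENSMUSG00000027475, chr2:153291413-153333390) had 65.5, 65.4 and 68.9 TPM in DMSO 48 h libraries, against 51.1, 45.7 and 43.0 TPM in DMSO 16 h libraries. In erinacine S it had 80.9, 63.7 and 61.2 TPM at 48 h, against 50.5, 46.1 and 48.9 TPM at 16 h. All 48 h libraries were above all 16 h libraries, by a log2 fold change of 0.51 in DMSO and 0.48 in erinacine S (each ± 0.10; limma, adjusted p = 0.00262 and 0.00408). Its partner Kif3a had log2 fold changes of 0.01 and 0.13 and Kif3c had 0.14 and 0.17, in DMSO and erinacine S, and neither passed.

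The ratios of these subunits set the genes side by side within a library. Kif3b over Kif3a was 0.418, 0.375 and 0.377 in erinacine S 48 h, 0.421, 0.414 and 0.416 in DMSO 48 h, 0.344, 0.283 and 0.288 in erinacine S 16 h and 0.332, 0.290 and 0.261 in DMSO 16 h libraries. Kifap3 over Kif3a was 1.30, 1.19 and 1.26 in erinacine S 48 h, 1.27, 1.27 and 1.22 in DMSO 48 h, 0.954, 0.962 and 1.00 in erinacine S 16 h and 0.943, 0.877 and 0.970 in DMSO 16 h libraries. Both ratios were higher in every 48 h library than in any 16 h library. The ratios are a description, and no test of them was made.

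**Figure D3:**
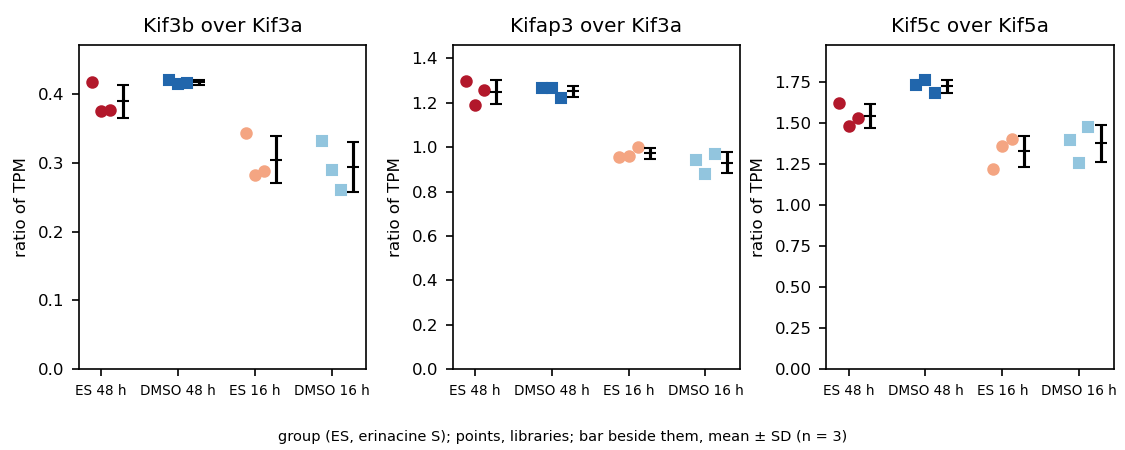
Ratio of TPM of Kif3b over Kif3a, Kifap3 over Kif3a and Kif5c over Kif5a in each library (points), with mean ± SD of the 3 libraries of a group beside them and axes from 0. Kif3b over Kif3a averaged 0.390 in erinacine S 48 h, 0.417 in DMSO 48 h, 0.305 in erinacine S 16 h and 0.294 in DMSO 16 h.

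In erinacine S, 8 of the 35 kinesins rose over time and 2 fell, which is 28.6% of the tested kinesins against 30.6% of all genes (15.1% up, 15.5% down). The calls shared with DMSO were 8, which is 80% of the 10 calls in erinacine S and 88.9% of the 9 calls in DMSO. These 8 are Kif16b, Kif1a, Kif1b, Kif26b, Kif3b, Kif5c, Kifc2 and Kifc3. The exceptions were Kif17 and Kif20b, called in erinacine S, and Kif27, called in DMSO. Without erinacine S 48 h replicate 1 the same 8 passed in erinacine S, against 3982 of all 15623 tested genes. The log2 fold changes were then 0.53 for Kif1a, 0.30 for Kif1b, 0.36 for Kif3b and 0.23 for Kif5c. Those of Kif26b, Kifc2, Kifc3 and Kif16b were 0.95, 0.78, 0.68 and -0.47. The difference between the treatments' time courses is the interaction given below, in which no kinesin passed.

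Kif17 (ENSMUSG00000028758, chr4:138250435-138301967) had 2.22, 1.58 and 0.988 TPM in erinacine S 48 h libraries, against 0.548, 0.672 and 0.721 TPM in erinacine S 16 h libraries. In DMSO it had 1.64, 1.48 and 2.44 TPM at 48 h, against 0.926, 1.21 and 0.921 TPM at 16 h. The times did not overlap under either treatment. Its log2 fold change was 0.63 ± 0.19 in erinacine S (limma, adjusted p = 0.0239) and 0.49 ± 0.19 in DMSO (adjusted p = 0.0646). The call was lost in 6 of 17 alternatives, among them the fit without erinacine S 48 h replicate 1 (log2 fold change 0.46), and Kif17 overlaps Sh2d5 (9.08 TPM) on the same strand.

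Kif27 (ENSMUSG00000060176, chr13:58287516-58354862), which in mouse is needed for motile cilia, had 1.06, 1.38 and 1.27 TPM in DMSO 48 h libraries, against 1.77, 1.66 and 2.09 TPM in DMSO 16 h libraries. Its fall in DMSO (log2 fold change -0.34 ± 0.12; limma, adjusted p = 0.0484) was close to the threshold and was lost in 13 of 17 alternatives. In erinacine S the value was -0.21 (adjusted p = 0.205). The other cilium kinesins that were tested did not pass at either treatment: Kif7 had -0.36 in DMSO and -0.43 in erinacine S, and Kif24, which in human cells holds back cilium formation, had -0.29 and 0.19.

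Kif20b (ENSMUSG00000024795, chr19:34922358-34975731), a cytokinesis motor needed for normal cortical size in mouse, had 2.73, 5.11 and 4.72 TPM in erinacine S 48 h libraries, against 5.68, 6.24 and 5.96 TPM in erinacine S 16 h libraries. The log2 fold change was -0.46 ± 0.16 (limma, adjusted p = 0.0477). Replicate 1 was far below replicates 2 and 3 at 48 h, and without that library the value was -0.23 (adjusted p = 0.104). The call was lost in 10 of 18 alternatives. In DMSO the log2 fold change was -0.20 (adjusted p = 0.369).

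By libraries alone, 18 of the 35 kinesins were higher and 4 lower at 48 h with no overlap in DMSO, against 24.1% and 26.4% of all genes. In erinacine S, 10 were higher and 4 lower, against 21.2% and 23.7% of all genes. The 12 mitotic kinesins had a median log2 fold change over time of 0.23 in DMSO, with 10 of 12 positive and none called. In erinacine S their median was -0.28, with 12 of 12 negative, and it was 0.14 without erinacine S 48 h replicate 1, with 9 of 12 positive.

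Transcripts of proteins that work with kinesins were also followed over time. With all libraries, those of dynein and dynactin, the minus-end transport machine, were called about as often as other genes. In DMSO, 6 of its 27 genes rose and 2 fell (29.6%), against 32.7% of all genes called. Of 24 tested adaptors and regulators, 9 rose and 1 fell (41.7%), and their median was 0.17 on the log2 scale, against -0.03 over all genes. Among 3 tested kinesin light chains Klc1 rose and Klc4 fell, and none of 15 spindle partners passed. In erinacine S, 5 dynein and dynactin genes rose and 2 fell (25.9%) and 7 adaptors rose and 1 fell (33.3%), against 30.6% of all genes called. Klc1 rose there, and again none of 15 spindle partners passed. Without erinacine S 48 h replicate 1 these counts differed. In erinacine S, 4 of 27 dynein and dynactin genes and 6 of 24 adaptors then passed, against 3982 of all 15623 genes. Of the light chains 0 of 3 passed (limma, smallest adjusted p = 0.0501), and 1 of 15 spindle partners did.

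Arl8b, the lysosome GTPase that recruits kinesin-1 and kinesin-3, had 101, 103 and 101 TPM in DMSO 48 h libraries, against 83.1, 78.3 and 81.4 TPM in DMSO 16 h libraries. It had 109, 102 and 102 TPM in erinacine S 48 h libraries, against 79.4, 83.2 and 83.5 TPM in erinacine S 16 h libraries. All 48 h libraries were higher, by a log2 fold change of 0.32 in DMSO and 0.35 in erinacine S (each ± 0.05; limma, adjusted p = 0.00102 and 0.00079). Kifap3 rose by 0.43 in DMSO and 0.49 in erinacine S (adjusted p = 0.00478 and 0.00282 by limma), and Trak2, a mitochondrial adaptor, by 0.38 and 0.35 (adjusted p = 0.00369 and 0.00597).

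Klc1, the main neuronal light chain of kinesin-1, had 675, 665 and 708 TPM in DMSO 48 h libraries, against 558, 560.3 and 549 TPM in DMSO 16 h libraries. The groups did not overlap (log2 fold change 0.30 ± 0.06; limma, adjusted p = 0.00356). Dync1i1, a neuronal intermediate chain of dynein, rose by 0.62 in DMSO (limma, adjusted p = 0.00291), while Dctn6, a subunit of dynactin's pointed end, fell by 0.26 on the log2 scale in erinacine S (limma, adjusted p = 0.00494).

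Erinacine S against DMSO at 48 h asked whether the compound changed the kinesins after the longer exposure. No kinesin passed: 0 of 35 were called by limma, against 21 genes or 0.134% of all genes tested. At an unadjusted p under 0.05 there were 2 kinesins, both mitotic, against 8.96% of all genes. All 12 tested mitotic kinesins had a negative log2 fold change, with a median of -0.42, and 1 library of the 3 set that value. The 13 cargo motors had a median of 0.03.

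Kif18a (ENSMUSG00000027115, chr2:109280738-109341747), which damps chromosome movements at metaphase, had 2.48, 3.95 and 4.19 TPM in erinacine S 48 h libraries, against 5.34, 5.01 and 4.73 TPM in DMSO 48 h libraries. All 3 erinacine S libraries were below all 3 DMSO libraries. The log2 fold change was -0.43 ± 0.15 (limma, unadjusted p = 0.0125, adjusted p = 0.388). Without erinacine S 48 h replicate 1 it was -0.25 ± 0.11 (adjusted p = 0.531). With libraries weighted by their fit it was -0.28 and passed (adjusted p = 0.0448). Kif18a overlaps Mettl15 (6.16 TPM) on the other strand, and the strand setting of the counting is not given in the sources used here.

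Kif22 (ENSMUSG00000030677, chr7:127027729-127042471), which pushes chromosome arms outward, had 4.33, 13.6 and 11.9 TPM in erinacine S 48 h libraries, against 14.8, 15.3 and 14.9 TPM in DMSO 48 h libraries. Replicate 1 was the lowest of all 12 libraries, and replicates 2 and 3 were also below the DMSO libraries. The log2 fold change was -0.68 ± 0.28 (limma, unadjusted p = 0.0345, adjusted p = 0.51), and -0.22 ± 0.12 without replicate 1. Kif18b, a motor that shortens astral microtubules, had 2.17, 8.18 and 7.79 TPM in erinacine S 48 h libraries, against 8.88, 8.91 and 8.98 TPM in DMSO 48 h libraries. The groups did not overlap, and its log2 fold change was -0.65 ± 0.32 (limma, adjusted p = 0.588), or -0.14 ± 0.15 without replicate 1.

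Kifc1 had 8.03, 17.0 and 15.7 TPM in erinacine S 48 h libraries, against 20.3, 15.9 and 18.9 TPM in DMSO 48 h libraries. The groups overlapped, with a log2 fold change of -0.47 ± 0.22 (limma, adjusted p = 0.571). Kif1c was the cargo motor with the smallest p. It had 9.16, 13.4 and 14.9 TPM in erinacine S 48 h libraries, against 17.2, 14.9 and 14.7 TPM in DMSO 48 h libraries, a log2 fold change of -0.32 ± 0.15 (limma, adjusted p = 0.559). Its lowest library was again replicate 1, and without it the value was -0.13 ± 0.11. Counted by libraries, 3 kinesins were lower with no overlap (Kif18a, Kif22 and Kif18b), against 8.74% of all genes, and 1 was higher (Kif21a), against 10.5%. Kif21a had 62.9, 70.0 and 61.3 TPM in erinacine S 48 h libraries, against 59.0, 60.0 and 59.7 TPM in DMSO 48 h libraries, a log2 fold change of 0.12 ± 0.07 that did not pass (limma, adjusted p = 0.668). With libraries weighted by their fit it was 0.20 and passed (limma, adjusted p = 0.0284), as did Kif5b, at -0.13 (adjusted p = 0.0476).

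Erinacine S 48 h replicate 1 was the lowest of all 12 libraries for 12 of the 12 tested mitotic kinesins, against 17.5% of all genes tested. It was the highest of the 6 libraries of 48 h for 10 of the 13 cargo motors, against 36% of all genes. The median log2 difference of the mitotic kinesins from the DMSO 48 h mean was -1.25 in replicate 1, 0.05 in replicate 2 and -0.14 in replicate 3 of erinacine S 48 h. Kif23, part of the centralspindlin complex of the midzone, had 3.45, 12.8 and 11.5 TPM in erinacine S 48 h libraries, against 11.0, 12.2 and 9.39 TPM in DMSO 48 h libraries. Kif11, which slides the spindle poles apart, had 2.56, 8.09 and 7.59 TPM in erinacine S 48 h libraries, against 8.05, 8.94 and 8.19 TPM in DMSO 48 h libraries. In both genes replicate 1 lay far below the other 5 libraries of 48 h, which overlapped between the treatments. For the cargo motors the median log2 difference was 0.19, -0.00 and -0.15 in the same libraries. Cenpe, outside the rule, had 2.81 TPM in replicate 1 against 5.81 to 6.22 TPM in the other 48 h libraries.

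**Figure D4:**
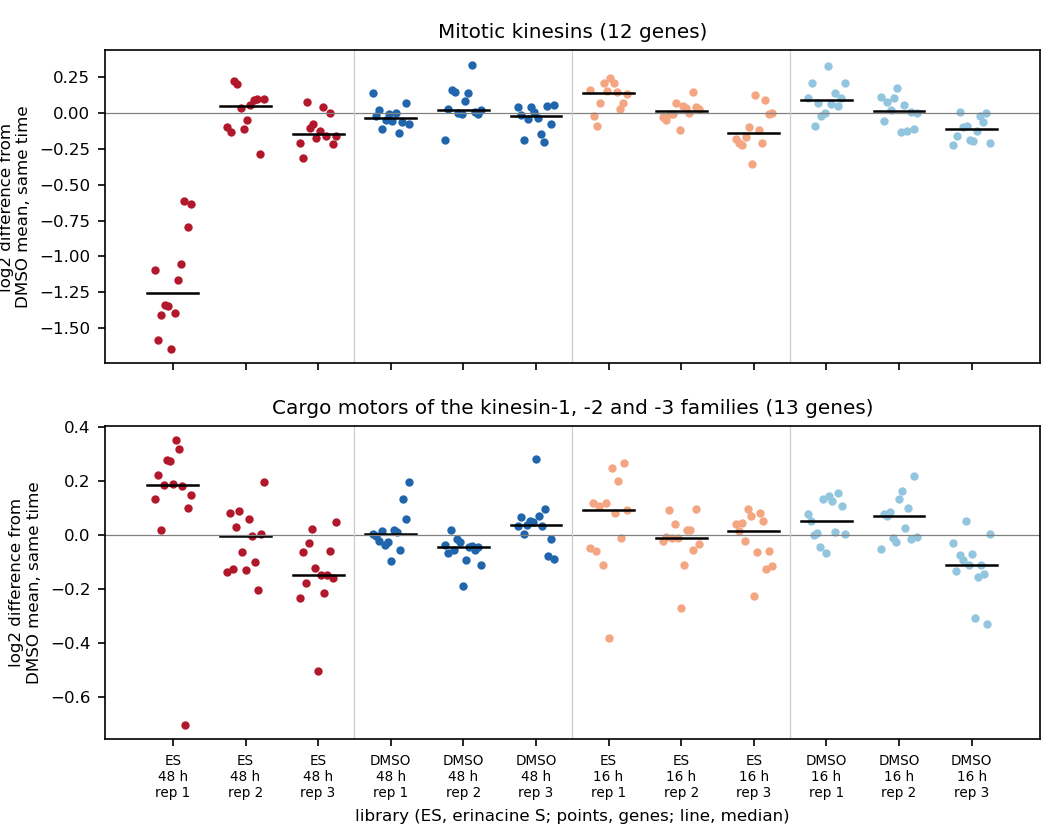
Log2 difference of each gene's TPM + 1 from the mean of the 3 DMSO libraries at that time, for the 12 mitotic kinesins (upper panel) and the 13 cargo motors (lower panel), with 1 point per gene and a line at the median of each library. The mitotic median of erinacine S 48 h replicate 1 lies at -1.25, while those of the other 11 libraries lie between -0.14 and 0.14.

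Without erinacine S 48 h replicate 1, the mitotic median at 48 h was -0.03, with 8 of 12 negative, and the cargo median was -0.09, with 9 of 13 negative. No kinesin passed in that fit either (limma, smallest adjusted p = 0.373, for Kif5c), in which 114 or 0.73% of all tested genes did. Kif5c then had a log2 fold change of -0.19 ± 0.06, against -0.08 ± 0.08 with all libraries.

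**Figure D5:**
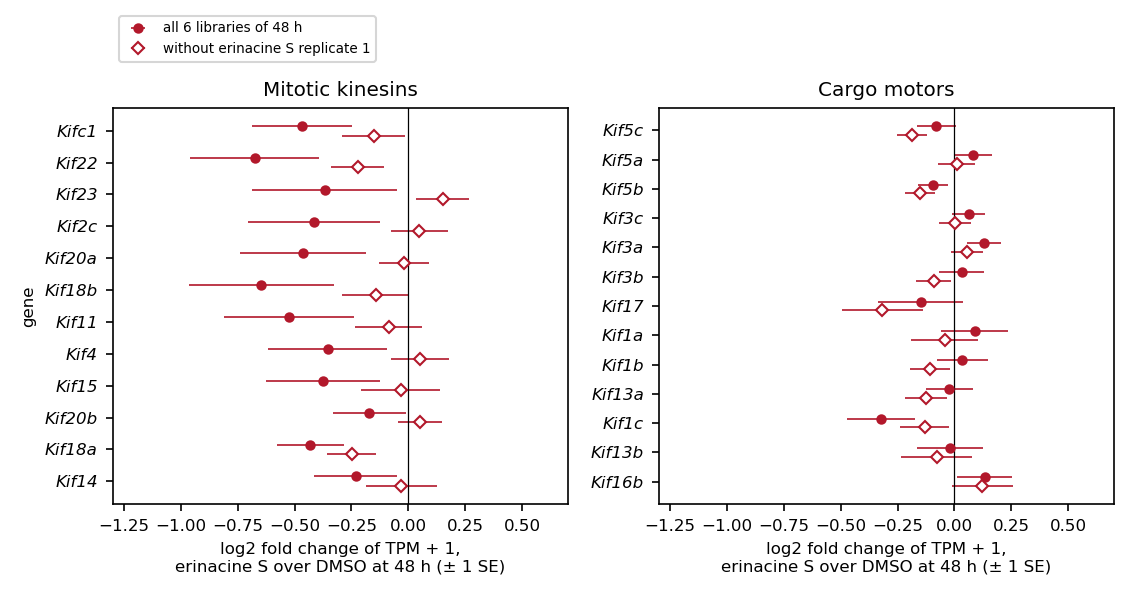
Log2 fold change of TPM + 1 for erinacine S over DMSO at 48 h (± 1 SE) for the mitotic kinesins (left panel) and the cargo motors (right panel), with all 6 libraries (filled circles) and without erinacine S replicate 1 (open diamonds). The mitotic kinesins lie between -0.68 and -0.17 with all libraries and between -0.25 and 0.15 without that replicate.

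Markers of dividing cells moved with the mitotic kinesins. The sum of 8 of 8 measured markers (Mki67, Top2a, Ccnb1, Cdk1, Birc5, Aurkb, Cenpf and Mcm5) was 44.8, 148 and 143 TPM in erinacine S 48 h libraries, against 149, 155 and 146 TPM in DMSO 48 h libraries. It ran from 114 to 140.3 TPM in erinacine S 16 h and from 115 to 149 TPM in DMSO 16 h libraries, and none of the 8 was at 0. The 15 spindle partners summed to 99.8, 243 and 249 TPM in erinacine S 48 h libraries, against 234, 254 and 241 TPM in DMSO 48 h libraries. Replicate 1 was thus low in the mitotic kinesins, the spindle partners and the markers alike, and without it the median log2 fold change of the markers was -0.01 and that of the spindle partners 0.03.

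Glial markers were also low in that library, and some were low in the other erinacine S 48 h libraries too. In erinacine S 48 h replicate 1 the sum was 170 TPM for radial glia and intermediate progenitors, against 313 to 341 TPM in DMSO 48 h libraries. Replicates 2 and 3 of erinacine S 48 h had 296 and 297 TPM. Astrocyte markers summed to 38.5, 102 and 101 TPM in erinacine S 48 h libraries, against 83.7 to 98.4 TPM in DMSO 48 h libraries, so that replicate 1 alone was below DMSO. Oligodendrocyte lineage markers summed to 58.0, 166 and 177 TPM in erinacine S 48 h libraries, against 192 to 222 TPM in DMSO 48 h libraries. Microglial markers summed to 1.09, 6.98 and 8.30 TPM, with C1qa at the placeholder for 0 in replicate 1, against 15.5 to 22.3 TPM in DMSO 48 h libraries. For both of these lists all 3 erinacine S libraries were below all 3 DMSO libraries. The same held for the sum of radial glia and intermediate progenitors. Their genes had a median log2 fold change of 0.07 without replicate 1, with 4 of 6 positive and 0 called. In the fit that left replicate 1 out, oligodendrocyte lineage genes had a median of -0.30 on the log2 scale, with 0 of 5 called, and microglial genes had -0.997, with 3 of 5 called (limma, adjusted p under 0.05). The neuronal sum of replicate 1, 5174 TPM, was within the DMSO range, but its members lay apart: Tubb3 had 2557 TPM, below the 2799 to 3239 TPM of DMSO 48 h libraries, and the other 8 of 9 neuronal markers were above all 3 DMSO 48 h libraries. In the same library 10 of the 13 cargo motors were at their highest of the 48 h libraries. The part that other cell types took in the kinesin values was not tested.

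The promoters of the mitotic kinesins are shown because these genes were low together in 1 library and because promoters of cell cycle genes are known to carry a CHR element, often with a CCAAT box nearby. RefSeq promoters (GRCm38.p6) were matched for 32 of the 40 kinesins. The windows run from 90 bases before the annotated start through the first 30 bases of the transcript. The CHR core was searched as TTTGAA and, on the other strand, TTCAAA, and the CCAAT box as CCAAT and ATTGG. Matches are in capitals below for Kif22 (chr7:127042391-127042510, minus strand), Kif18b (chr11:102925095-102925214, minus strand), Kif11 (chr19:37376292-37376411, plus strand) and Kif23 (chr9:61946770-61946889, minus strand). Kif5c (chr2:49619196-49619315, plus strand), a cargo motor with no match, is set beside them. The mitotic promoters shown all hold both motifs, which not all mitotic kinesins do, and some cargo motor promoters hold a match.
Kif22: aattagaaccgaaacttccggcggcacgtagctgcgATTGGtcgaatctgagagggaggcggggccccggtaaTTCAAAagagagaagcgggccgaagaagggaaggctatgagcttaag
Kif18b: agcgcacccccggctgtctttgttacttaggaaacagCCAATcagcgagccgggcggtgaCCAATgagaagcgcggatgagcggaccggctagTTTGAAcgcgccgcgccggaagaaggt
Kif11: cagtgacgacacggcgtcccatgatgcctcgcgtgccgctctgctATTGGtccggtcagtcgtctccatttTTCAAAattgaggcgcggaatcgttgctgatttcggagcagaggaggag
Kif23: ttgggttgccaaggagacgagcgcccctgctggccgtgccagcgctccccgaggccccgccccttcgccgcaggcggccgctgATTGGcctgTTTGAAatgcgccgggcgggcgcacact
Kif5c: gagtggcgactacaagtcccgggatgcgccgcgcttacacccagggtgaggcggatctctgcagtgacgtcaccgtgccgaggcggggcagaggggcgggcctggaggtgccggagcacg

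In these windows the CHR core begins 17 bases before the start in Kif22 and 19 before it in Kif11, and the nearest CCAAT box lies 37 and 26 bases further upstream. In Kif18b the spacing is 33 bases and in Kif23 it is 9 bases, and no matches overlap. These spacings all run from the first base of the CCAAT box to the first base of the CHR core. Of 11 tested mitotic kinesins with a promoter, 8 (72.7%) held the CHR core in the window, against 6.52% of 32851 mouse promoters and 1 of 12 promoters of cargo motors (8.33%). The CCAAT box was in 6 of 11 (54.5%), against 20.2% of all promoters. Both motifs stood together in 6 of 11, against 1.37% of all promoters and none of 12 cargo motor promoters. Among the 24 promoters of all kinesins other than mitotic, cargo motors included, 1 held both, that of Kif26b. A match describes the letters of the sequence and is not a measured binding site. Kif18a, which had the smallest p at 48 h, held neither motif in its window, and nor did Kif14 and Kif2c.

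At 16 h erinacine S left no kinesin past the threshold. By limma 0 of 35 were called, as were 0 of all genes tested, and at an unadjusted p under 0.05 there were 0 kinesins against 201 genes or 1.29%. The log2 fold changes of the 35 kinesins ran from -0.29 to 0.14, with a median of -0.00, and that of the mitotic kinesins was 0.01. The smallest p was that of Kif17, with 0.548, 0.672 and 0.721 TPM in erinacine S 16 h libraries, against 0.926, 1.21 and 0.921 TPM in DMSO 16 h libraries. It was the only kinesin whose groups did not overlap, against 1.56% of all genes lower in that way, and its log2 fold change was -0.29 ± 0.19 (limma, unadjusted p = 0.144, adjusted p = 1.00). Next came Kif24 (-0.22 ± 0.16), Kif13a (0.09 ± 0.10), Kif27 (-0.09 ± 0.12) and Kif13b (0.10 ± 0.14), none of them past the threshold.

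The effect of erinacine S at 48 h minus that at 16 h tested whether the kinesins responded differently over time. By limma 0 of 35 kinesins passed, as did 0 of all genes tested, and 1 kinesin had an unadjusted p under 0.05 against 2.77% of all genes. It was Kif18a, with a difference of -0.47 ± 0.21 (limma, unadjusted p = 0.0439, adjusted p = 1.00). Kif24 had 0.49 ± 0.22, Kif11 -0.67 ± 0.40, Kif22 -0.59 ± 0.40 and Kifc1 -0.45 ± 0.31. The mitotic median of the difference was -0.43, and -0.06 without erinacine S 48 h replicate 1. A p that misses the threshold does not show equal values: the 8 kinesins that changed over time under both treatments had interaction values between -0.07 and 0.15 on the log2 scale, with standard errors of 0.12 to 0.22.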

How the data were processed

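The 12 libraries of total RNA from primary cortical neurons fall into 4 groups of 3, taken from the sample titles. Libraries were strand specific, per the labels' protocols. Per the submitters' processing notes, the authors used StringTie 2.1.3, HISAT2, SAMtools, Trimmomatic 0.36, bcl2fastq 2.20 and FastQC on genome build GRCm38.p5. The sources used here give neither the order of these tools nor the strand setting or annotation release. What the authors deposited is 1 table of TPM per gene, with 0.0001 in place of 0. TPM keep no read depth, so precision comes only from the spread between libraries. Coordinates of genes are those of the deposited table (GRCm38), and promoters come from RefSeq (GRCm38.p6).

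Log2(TPM + 1) was fitted with limma 3.58.1 in R 4.3.3 (a mean per group, moderated with a trend), keeping the 15623 genes that averaged 1 TPM or more. Two-sided p-values were adjusted by Benjamini-Hochberg over all genes tested, with a threshold of 0.05, for 5 comparisons: erinacine S against DMSO at each time, the difference of these, and 48 h against 16 h within each treatment. The 48 h comparisons share libraries with the time comparisons. The scale understates changes of low genes. Libraries were called non-overlapping where all 3 of a group were above, or all 3 below, those of the other group. The fit was tested on simulated data.

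Named are all kinesins that passed in a comparison, or the 5 with the smallest p where fewer than 5 passed, the most abundant kinesins overall and by role, and up to 4 called partner genes with the smallest p. Kif21a, Kif23 and Kif11 at 48 h, Kifap3 in DMSO, Klc4 and the genes outside the naming rule were named after their values were seen. The kinesins, role groups, partner lists and marker lists were chosen with earlier results of these data known. The labels state no pairing of the libraries. At 16 h same-numbered libraries deviated together from their groups (correlations of 0.480, 0.185 and 0.510), and at 48 h they did not (-0.022, 0.107 and -0.192). Libraries with different numbers reached 0.109 at 16 h and 0.201 at 48 h, so the smaller of these values do not show pairing. Alternatives were other pseudocounts, filters and scalings, a replicate block, library weights, robust moderation, a fit of the compared libraries alone, and leaving out each library.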

Additional observations from a re-analysis of the deposited data

How the results depend on the processing

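Of 190 counts of called genes recomputed under the alternatives, 182 stayed within 1.5 times the reported count. Many of the reported counts were 0, as for the kinesins at 16 h, at 48 h and in the interaction. Of 190 recomputed medians, 175 stayed and 15 moved. Erinacine S against DMSO called no kinesin at 16 h and none in the interaction under any alternative that was run. At 48 h it called 0 with all of them except library weights, which called 3 (Kif5b, Kif21a and Kif18a). Library weights gave 12 of the 15 pairs of a kinesin and a comparison that were gained in any alternative. The shares of all genes called under weights and under the blocks below are not given here, so these counts have no background. Leaving out a library in turn gave 8 to 10 called kinesins over time in DMSO and 8 to 10 in erinacine S, and 0 for the other comparisons. With the replicate number as a block, 8 kinesins passed over time in DMSO (Kif27 was lost) and 10 in erinacine S. A block within each time, as if replicate numbers paired the libraries there, gave 8 in DMSO and 11 in erinacine S. Kif7 was added in erinacine S (log2 fold change -0.43, limma, adjusted p = 0.0448). Neither block changed any other kinesin call.

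Of 627 recomputed values of the single genes that the naming rule gave, which leave out Kif5b and Kif21a at 48 h, 596 kept their direction and side of the threshold, 29 were no longer past it, and 1 passed under weights (Kif18a). The 29 belong to Kif27, Kif20b and Kif17. The other 8 kinesins called over time passed in every alternative in both treatments. The direction reversed for Kif13b at 16 h, which ranged from -0.062 (without DMSO 16 h replicate 3) to 0.21 (without DMSO 16 h replicate 2) around the reported 0.10. The cause was not tested. Over time, 12 pairs of a kinesin and a treatment passed in at least 1 alternative and not in the reported fit: Kif13a, Kif17, Kif21a, Kif21b, Kif24 and Kif26a in DMSO, and Kif21b, Kif27, Kif2a, Kif3c, Kif5a and Kif7 in erinacine S. Depth is unknown, and 3 libraries a group limit what could be called.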
